A study of Mus musculus with 59 samples.

Results

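The lipid droplet coat genes are 9 mouse genes whose products sit on, join or help to form lipid droplets: *Plin2*, *Plin3*, *Plin4*, *Plin5*, *Cidea*, *Cideb*, *Cidec*, *Fitm1* and *Fitm2*. Binding sites of BCL6, PPARα and PPARδ in mouse liver were assigned to them from 7 lists of ChIP-seq peaks. A peak was taken where its center lay inside one of these genes, or where the nearest transcription start site (TSS) of any protein-coding gene, within 100 kb, was theirs. This gave 66 of 102931 peaks. Peaks of all lists whose centers lay within 200 bp were joined, which left 24 of 40474 combined sites, at 8 of the 9 genes. *Fitm1* had none.

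The livers came from male C57BL/6 mice. BCL6, PPARα and PPARδ were each mapped in livers of wild-type mice fed ad libitum and of wild-type mice fasted overnight, with 3 livers per factor and feeding state. BCL6 was mapped once more in 3 livers of Bcl6 fl/fl mice fed ad libitum, which carry floxed alleles and no Cre. Each group was called against an input of its own. Age was not given in the labels. Each list was called over its 3 livers together and holds positions without heights, so a count has no replicate error and no test was made. The 7 lists held between 2399 peaks (fasted PPARδ) and 29085 peaks (fasted PPARα), and read depth is unknown from them. A site missing from a list was not called there, which does not show that the factor was absent. No expression values were used, so the labelled tissue was not checked against its markers.

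Lipid droplets store triglyceride in hepatocytes, and their number rises when fatty acids reach the liver faster than they are burned or exported, as in fasting. Perilipins (*Plin*) coat the droplet surface and limit the access of lipases, CIDE proteins (*Cide*) act in droplet fusion and in the lipidation of lipoproteins, and FITM proteins of the endoplasmic reticulum help droplets to form. PPARα and PPARδ are fatty acid-activated nuclear receptors that bind as partners of RXR to repeats of AGGTCA spaced by 1 base, and BCL6 is a zinc finger repressor. *Plin2* and *Cidec* are known PPAR targets.

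Sites are named here by their distance in bp from the TSS of a representative RefSeq transcript, with minus for upstream, and coordinates are those of mm10. Sequences of 5 sites are printed on the strand of the gene, 5′ to 3′. Capitals mark matches, on either strand, to a PPAR element (AGGTCANAGGTCA with up to 2 mismatches) or to a BCL6 element (TTCCTAGAA with up to 1 mismatch). The sites *Plin2* -20306 (chr4:86690201-86690496, minus strand), *Plin2* -1917 (chr4:86671844-86672116, minus strand) and *Cidec* -3125 (minus strand) are 3 of the 4 sites that held all 3 factors in C57BL/6 livers. The last of these spans 308 bp, and the interval of its fed PPARα peak is shown (chr6:113438750-113438966). *Cidec* +7522 (chr6:113428114-113428349, minus strand) and *Cideb* +621 (chr14:55757695-55757911, minus strand) are shown because they hold matches to both elements and were chosen after the matches were seen.
Plin2 -20306: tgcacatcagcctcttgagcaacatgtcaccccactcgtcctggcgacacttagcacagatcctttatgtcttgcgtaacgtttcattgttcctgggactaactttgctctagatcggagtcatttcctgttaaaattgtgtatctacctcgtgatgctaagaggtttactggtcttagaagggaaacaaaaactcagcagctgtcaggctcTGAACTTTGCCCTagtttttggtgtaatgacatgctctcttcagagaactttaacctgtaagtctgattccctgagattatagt
Plin2 -1917: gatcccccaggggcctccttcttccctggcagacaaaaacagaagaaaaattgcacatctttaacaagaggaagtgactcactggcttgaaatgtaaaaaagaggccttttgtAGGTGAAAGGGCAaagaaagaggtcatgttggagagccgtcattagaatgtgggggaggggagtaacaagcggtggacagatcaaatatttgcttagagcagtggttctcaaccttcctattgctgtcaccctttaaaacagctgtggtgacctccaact
Cidec -3125: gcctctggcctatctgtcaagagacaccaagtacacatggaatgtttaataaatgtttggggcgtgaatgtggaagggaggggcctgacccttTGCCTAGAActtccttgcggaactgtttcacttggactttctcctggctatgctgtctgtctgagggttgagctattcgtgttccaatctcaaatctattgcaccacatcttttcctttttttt
Cidec +7522: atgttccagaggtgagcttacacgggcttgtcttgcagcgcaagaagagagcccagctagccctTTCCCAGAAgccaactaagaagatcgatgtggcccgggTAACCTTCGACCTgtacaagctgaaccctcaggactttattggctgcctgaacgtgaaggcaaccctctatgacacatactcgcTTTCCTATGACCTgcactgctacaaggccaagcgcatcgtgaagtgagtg
Cideb +621: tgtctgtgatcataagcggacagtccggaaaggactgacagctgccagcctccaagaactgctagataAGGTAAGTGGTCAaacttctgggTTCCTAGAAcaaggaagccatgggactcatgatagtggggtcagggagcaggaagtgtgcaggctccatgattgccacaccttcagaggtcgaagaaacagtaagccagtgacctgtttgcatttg

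PPARα was the factor found at most of these genes. Its fed list had 14 peaks and its fasted list 18, each at 7 of the 9 genes: all but *Cidea* and *Fitm1*. Over the genome, 34.3% of 21774 protein-coding genes had a fed PPARα peak and 46.0% a fasted one. PPARδ followed with 9 fed peaks at 5 genes and 6 fasted peaks at 4 genes, where 18.6% and 8.70% of coding genes had one. BCL6 in C57BL/6 livers was the most restricted, with 4 fed peaks, all at *Plin2*, and 4 fasted peaks at *Plin2* and *Cidec*. Of all coding genes 28.0% had a fed BCL6 peak and 20.6% a fasted one. The fed BCL6 list of Bcl6 fl/fl livers had 11 peaks at 6 of the 9 genes, against 30.9% of coding genes.

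**Figure D1:**
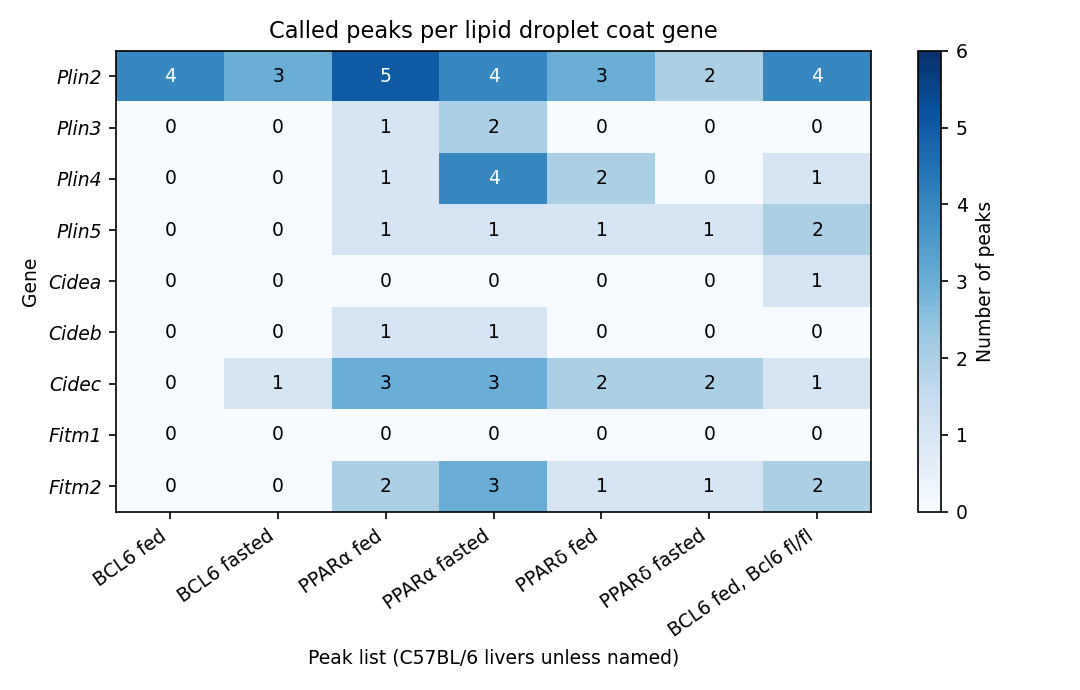
Number of called peaks for each lipid droplet coat gene (rows) in each of the 7 lists (columns), printed in the cells and shown by the color scale. *Plin2* has the most peaks in every list, level with *Plin4* in the fasted PPARα list and with *Cidec* in the fasted PPARδ list. C57BL/6 BCL6 peaks appear at *Plin2* and, in fasted livers, at *Cidec*, and the row of *Fitm1* is 0 throughout.

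*Plin2* encodes the main perilipin of hepatocyte droplets and had 6 combined sites, the most of the 9 genes. Of all coding genes, 9.46% had as many or more. *Plin4* and *Cidec* had 4 sites each, *Fitm2* 3, *Plin3*, *Plin5* and *Cideb* 2 each and *Cidea* 1. Coding genes had a median of 1 site and a mean of 1.83, and the 9 genes a median of 2 and a mean of 2.67. *Fitm1* shares its count of 0 with 47.4% of coding genes, and it had 1 site when 1 TSS per gene record was used. FITM1 is known mainly from skeletal and heart muscle, and whether tissue has a part in this count was not tested.

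**Figure D2:**
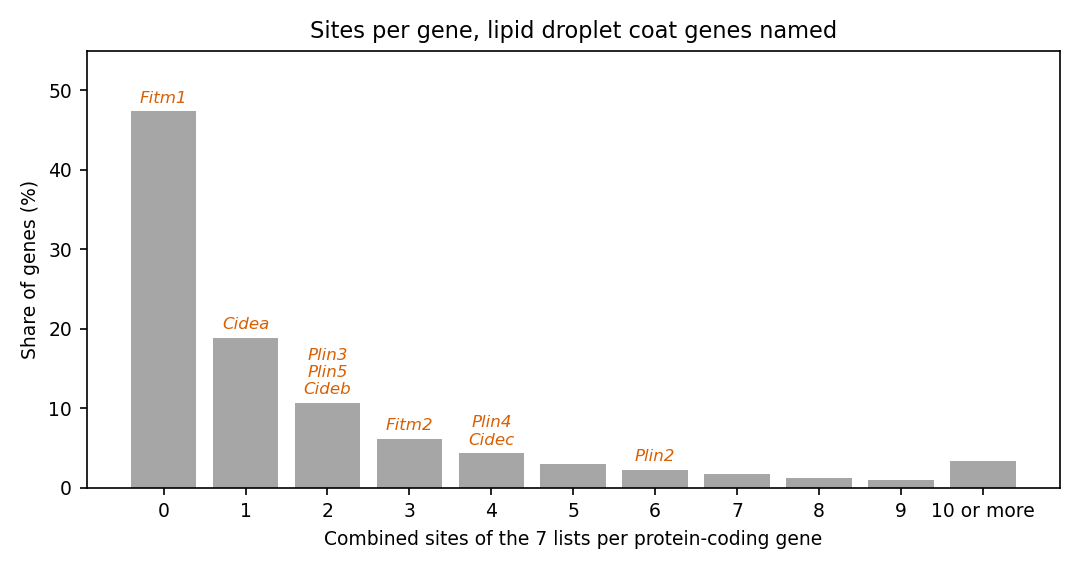
Share of 21774 protein-coding genes (vertical axis, percent) by their number of combined sites of the 7 lists (horizontal axis), with the lipid droplet coat genes named above the bar they belong to. *Fitm1* sits at 0, *Cidea* at 1, and *Plin2* at 6 sites.

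The genes differ in how much of the genome could be assigned to them. The stretch closer to their TSS than to any other, or inside the gene, ran from 5.9 kb for *Cideb* to 82.5 kb for *Plin2*, where the median coding gene had 54.0 kb. All but *Plin2* had less than that median. Per Mb, *Cideb* had 340 sites, *Cidec* 276, *Plin5* 244 and *Plin4* 209. *Plin2*, with the most sites, had 72.8 per Mb, fewer than *Plin3* (122) and *Fitm2* (113), and *Cidea* had 19.5. Over all 9 genes together there were 103 sites per Mb in 233.3 kb, beside 20.2 per Mb for all coding genes. The order of the genes by count is therefore not their order by density, and with 1 to 6 sites a gene neither order rests on a replicate error. The part of stretch length in these densities was not tested.

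The 6 sites of *Plin2* lay upstream of its representative TSS in 2 groups. At -20306 all 7 lists had a peak, the only such site among the 24. Its 7 peak centers spread over 88 bp, with the fasted PPARδ peak 62 bp to the downstream side of the site's center. *Plin2* -19315 (chr4:86689266-86689482) was called only in fed PPARα livers. *Plin2* -16107 (chr4:86686055-86686275) had BCL6 in fed and in fasted livers of C57BL/6 and no PPAR peak, and was the only C57BL/6 BCL6 site near these genes without PPARα. The Bcl6 fl/fl list did not have it.

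The other group lay within 2 kb of the *Plin2* TSS. At -1917 PPARα and PPARδ were called in both feeding states, while BCL6 was called in fed livers of C57BL/6 and of Bcl6 fl/fl mice and not in fasted livers. At -1071 (chr4:86670995-86671249) BCL6 and PPARα were called in both states and PPARδ in fed livers alone. Hence, at these neighboring sites a different factor dropped out of the fasted lists: BCL6 at the former and PPARδ at the latter. At -29 (chr4:86669966-86670224), across the TSS, PPARα was called in both states together with the Bcl6 fl/fl BCL6 list, and neither C57BL/6 BCL6 nor PPARδ was called.

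*Plin4* and *Plin5* are neighbors on chromosome 17 with TSSs 7.5 kb apart, and *Plin3* lies 180.7 kb from *Plin4*. *Plin4* encodes a perilipin of nascent droplets best known from adipose tissue and muscle. Its 4 sites were all in the fasted PPARα list, whereas the fed list had 1, the largest gain in PPARα peaks among the 9 genes. The shared site, *Plin4* +962 (chr17:56108679-56108949) in intron 3, also had fed PPARδ and Bcl6 fl/fl BCL6. The sites at -1010 (chr17:56110681-56110903) and -151 (chr17:56109822-56110044) had fasted PPARα alone. At +10377 (chr17:56099287-56099538), beyond the 3′ end and inside the gene *Hdgfl2*, PPARα was called in fasted and PPARδ in fed livers, with 44 bp between the centers.

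*Plin5* encodes the perilipin of oxidative tissues that links droplets to mitochondria. At its promoter, *Plin5* -76 (chr17:56117211-56117499), PPARα and PPARδ were each called in both feeding states. The Bcl6 fl/fl list had a peak there too, centered 62 bp to the downstream side of the site's center, while the 4 PPAR centers lay between 26 bp upstream and 4 bp downstream of it. *Plin5* +897 (chr17:56116300-56116502) in coding exon 3 was called in the Bcl6 fl/fl list alone. *Plin3*, a perilipin that moves between the cytosol and droplets, had PPARα only. Its site at +1062 (chr17:56289338-56289560, intron 1) was called in fasted livers and that at +10753 (chr17:56279646-56279868, coding exon 8) in both states, although the latter lay nearer to the TSS of *Ticam1*, at 2991 bp.

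*Cidec* encodes the CIDE protein that drives droplet growth by lipid transfer between droplets. At *Cidec* -3125 all 4 PPAR lists had a peak and BCL6 was called in fasted C57BL/6 livers but not in fed livers of either genotype, which makes it the only fasted-only BCL6 site here. The BCL6 center lay 67 bp upstream of the site's center, and the 4 PPAR centers between 5 and 27 bp downstream of it. In coding exon 5, at +7522, all 4 PPAR lists and the Bcl6 fl/fl list had a peak, with the 5 centers spread over 23 bp. Of the remaining sites, +878 (chr6:113434771-113434993, intron 1) was called in the fasted and +8120 (chr6:113427532-113427748, intron 5) in the fed PPARα list.

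*Cideb*, the CIDE protein of hepatocytes that acts in the lipidation of VLDL, had 1 fasted PPARα site in its 5′ UTR at +77 (chr14:55758236-55758458) and 1 fed PPARα site in intron 2 at +621. *Ltb4r2*, a leukotriene receptor gene, overlaps the start of *Cideb*. The site at +77 lay in both genes, and the site at +621 was 119 bp from an *Ltb4r2* TSS and was assigned to *Cideb* because it lies inside that gene. *Cidea*, known from brown fat and from fatty liver, had 1 site at +7395 (chr18:67350858-67351060, intron 1), called in the Bcl6 fl/fl list alone. *Fitm2*, which binds triglyceride and is needed for droplets to bud, had all 4 PPAR lists and Bcl6 fl/fl BCL6 in its 5′ UTR at +9 (chr2:163472500-163472736). In intron 1 at +765 (chr2:163471697-163472006) PPARα was called in both states, with the Bcl6 fl/fl BCL6 center 66 bp downstream of the site's center and both PPARα centers upstream of it. The third site of *Fitm2*, +8260 (chr2:163464258-163464480), had fasted PPARα alone.

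**Figure D3:**
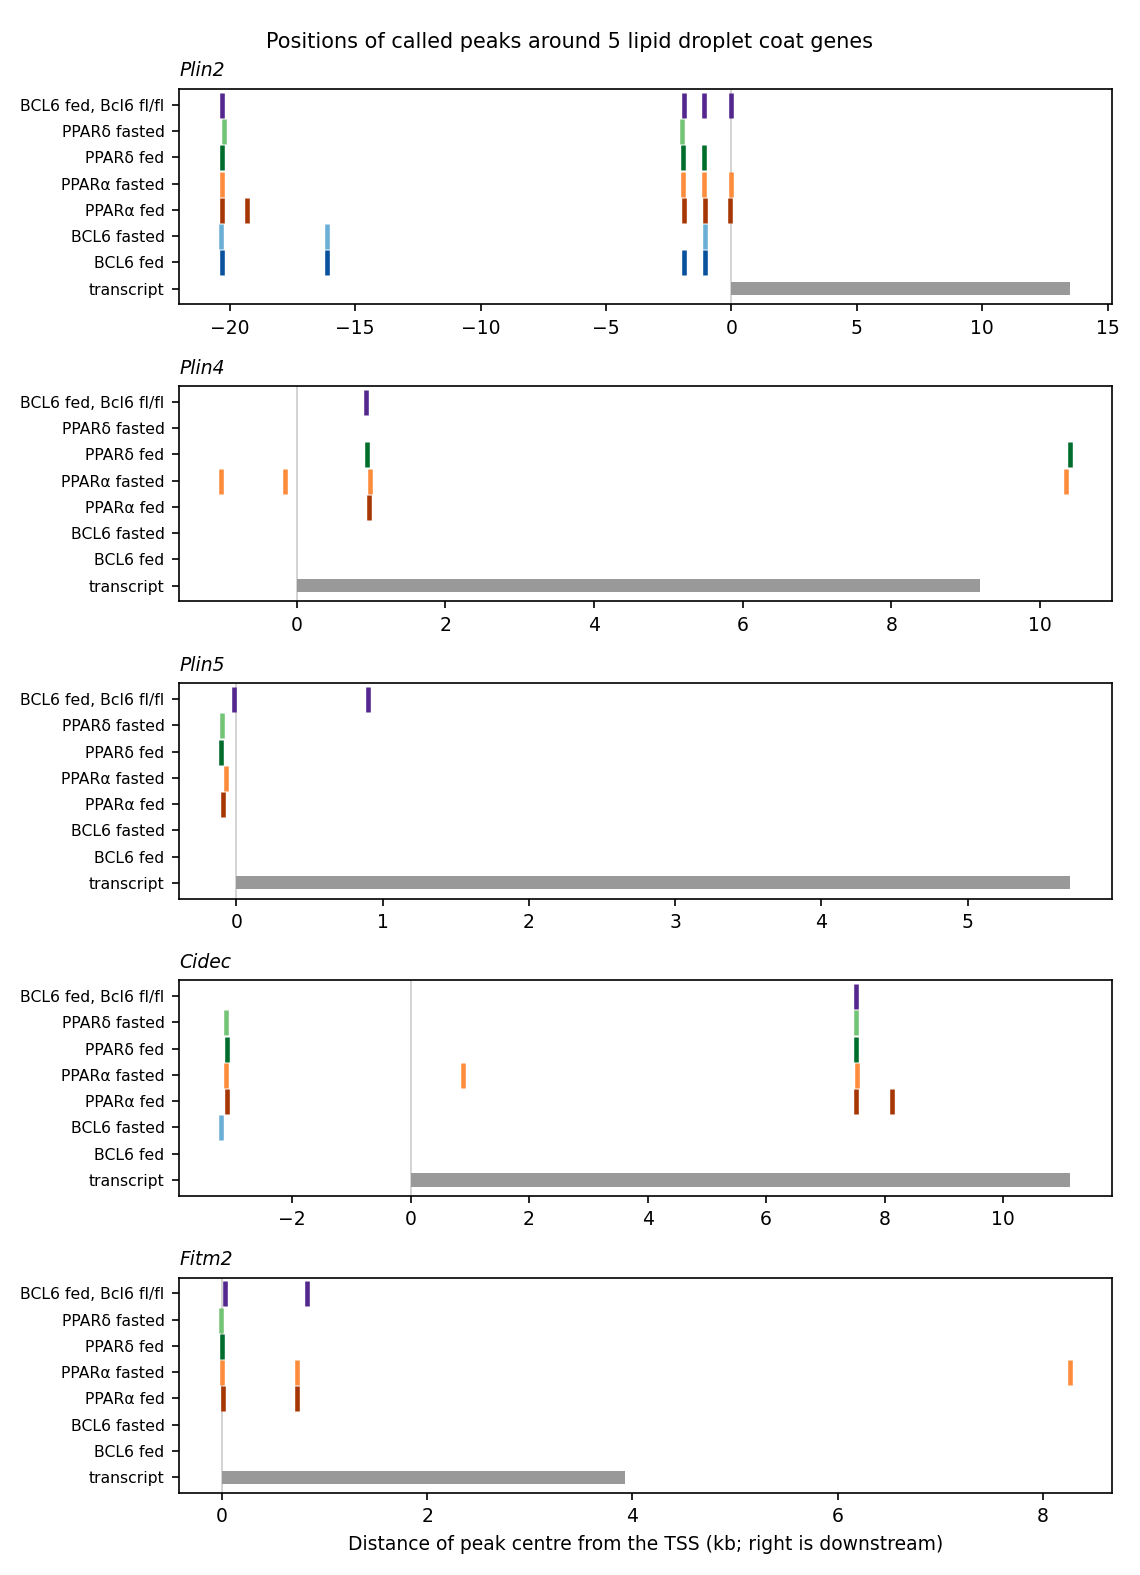
Positions of the called peaks around *Plin2*, *Plin4*, *Plin5*, *Cidec* and *Fitm2*: ticks are peak centers by list (rows), the horizontal axis is the distance from the TSS in kb with the transcript as a gray bar, and each panel has its own scale. C57BL/6 BCL6 ticks occur in the panels of *Plin2* and *Cidec*, and 3 of the 4 *Plin4* sites with fasted PPARα have no fed PPARα tick.

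Fasting was then compared factor by factor. Over the genome the BCL6 list of fasted livers was 0.615 times as long as that of fed livers, the PPARα list 1.36 times and the PPARδ list 0.327 times. Near the lipid droplet coat genes the BCL6 lists both had 4 peaks, while the ratio was 1.29 for PPARα (14 fed and 18 fasted peaks) and 0.667 for PPARδ (9 and 6). Of 21 PPARα sites here, 11 were called in both states (52.4%, 95% Wilson interval 32.4% to 71.7%), 7 in fasted livers only (33.3%) and 3 in fed livers only (14.3%). The shares over all 33370 PPARα sites were 51.3%, 35.8% and 12.8%, so the PPARα sites of these genes were spread over the feeding states much as the whole cistrome was. The 7 fasted-only sites belonged to *Plin3*, *Plin4*, *Cideb*, *Cidec* and *Fitm2*, with 3 of them at *Plin4*. The 3 fed-only sites were *Plin2* -19315, *Cideb* +621 and *Cidec* +8120.

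Most PPARδ sites of these genes were called in fed and fasted livers alike. Of 9 sites, 6 were called in both states (66.7%, interval 35.4% to 87.9%), where 18.7% of all 8194 PPARδ sites were, a share below the interval. These 6 were *Plin2* -20306 and -1917, *Plin5* -76, *Cidec* -3125 and +7522, and *Fitm2* +9. A further 3 were called in fed livers only (33.3%, interval 12.1% to 64.6%, against 70.7% of all), namely *Plin2* -1071 and both *Plin4* sites. No site was called in fasted livers only, where the interval reaches 29.9% and the share of all sites was 10.6%. The intervals cover counting error only, and sites at 1 gene share their chromatin, so this is a description and not a test of the 9 genes.

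BCL6 in C57BL/6 livers had 5 sites here, with 3 called in both states (60.0%, interval 23.1% to 88.2%), 1 in the fed state alone and 1 in the fasted state alone. Over all 17577 BCL6 sites these shares were 43.7%, 45.3% and 11.0%. With 5 sites the intervals take in all of these values. With the fed Bcl6 fl/fl list in place of the fed C57BL/6 list, 9 of 13 BCL6 sites were called in the fed state alone (69.2%) and 2 in both (15.4%). The shares over all sites after this swap are not given, so these values have no background. Genotype and feeding state also differ together in it.

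**Figure D4:**
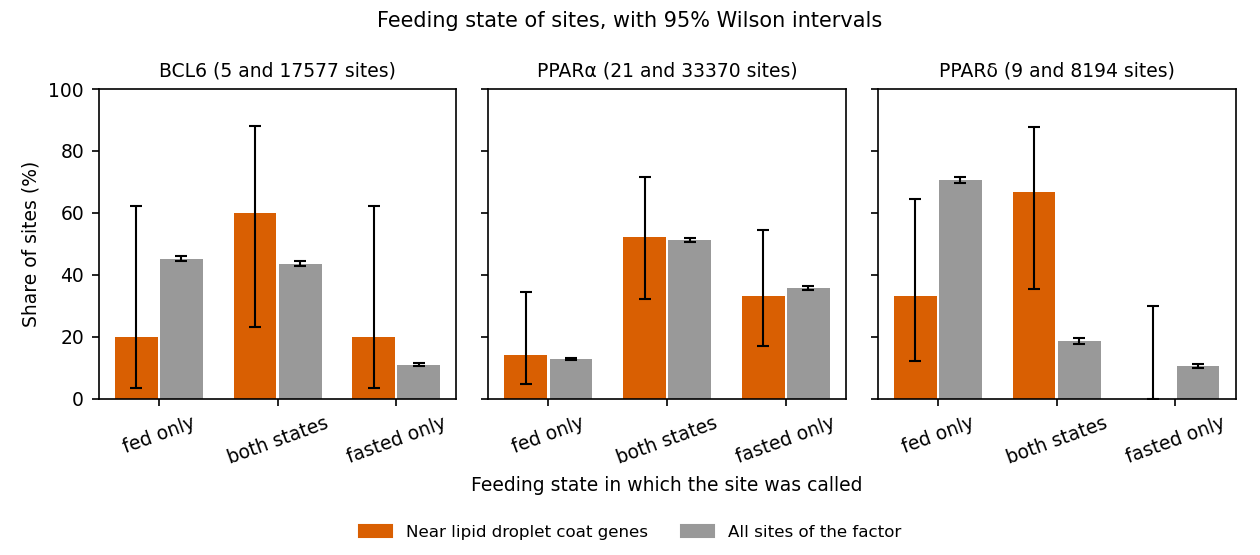
Share of sites (vertical axis, percent) called in the fed state only, in both states or in the fasted state only, for the 3 factors in C57BL/6 livers; orange bars are sites near lipid droplet coat genes, gray bars all sites of the factor, and error bars 95% Wilson intervals. The PPARα shares of all sites lie inside the intervals of the sites near these genes, and the PPARδ share called in both states is 66.7% near these genes beside 18.7% of all sites.

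The factors were then compared at each site. All 9 PPARδ sites also had PPARα (interval 70.1% to 100%), as did 85.1% of PPARδ sites in the genome. Conversely, 9 of the 21 PPARα sites had PPARδ (42.9%, interval 24.5% to 63.5%, against 20.9% of all). Of the 5 BCL6 sites 4 had PPARα (80.0%, interval 37.6% to 96.4%, against 77.6%). Only these 4 of the 21 PPARα sites had C57BL/6 BCL6 (19.0%, interval 7.67% to 40.0%), below the 40.9% of all PPARα sites, which lies just outside the interval. The 4 sites of all 3 factors made up 16.7% of the 24 sites (interval 6.68% to 35.9%, against 11.5%). Of the 24 sites 11 were in a single list (45.8%, against 39.6%), and 10 were in PPARα lists alone (41.7%, against 36.4%).

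In fed livers, BCL6 calls outside *Plin2* depended on the list: the C57BL/6 list had 0 and the Bcl6 fl/fl list 7. Of the 11 sites in the fed Bcl6 fl/fl list, 8 had no BCL6 call in either C57BL/6 list (72.7%, interval 43.4% to 90.3%), where 32.2% of all sites in that list had none. The 8 were *Plin2* -29, *Plin4* +962, *Plin5* -76 and +897, *Cidea* +7395, *Cidec* +7522, and *Fitm2* +9 and +765. All 7 of them outside *Plin2* were thus without a C57BL/6 BCL6 call, and 6 of the 8 had PPARα. In all, 9 of the 11 Bcl6 fl/fl sites had PPARα (81.8%, interval 52.3% to 94.9%, against 77.6%). In the other direction, 3 of the 4 fed C57BL/6 BCL6 sites recurred in the Bcl6 fl/fl list, against 69.6% of all. With BCL6 from either genotype, 10 of the 21 PPARα sites had BCL6 (47.6%, interval 28.3% to 67.6%), next to 51.5% of all. Each genotype and each feeding state has its own libraries and input and the labels give no batch, so a difference between lists and one between their library sets cannot be told apart, between genotypes or between fed and fasted livers.

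Distances from the sites to the TSS were counted next. Of the 24, 19 lay within 10 kb and 10 within 1000 bp of the representative TSS, and the farthest was *Plin2* -20306. The same counts over all sites are not given, so these distances have no background. The assignment rule also limits how far a site can lie from the TSS of a gene with a short stretch, such as *Cideb* with 5.9 kb. Site centers in a promoter, from 1000 bp upstream to 100 bp downstream of any coding TSS, numbered 10 (41.7%, interval 24.5% to 61.2%), where 13.4% of all combined sites were in one. Of these 10, 9 were in a promoter of the lipid droplet coat gene itself. *Cideb* +621 was not, and lay 119 bp from an *Ltb4r2* TSS. For the PPARα sites the share was 10 of 21 (47.6%, interval 28.3% to 67.6%, against 14.7%) and for the fasted-only PPARα sites 4 of 7 (57.1%, interval 25.0% to 84.2%, against 23.8%). Among C57BL/6 BCL6 sites 1 of 5 was in a promoter, *Plin2* -1071, which counts there through a predicted transcript that starts upstream of the representative TSS. *Plin4* -1010 and +962 and *Cidec* +878 also count only through transcripts other than the representative one. The stretches assigned to 8 of the 9 genes were shorter than the median of 54.0 kb. Their part in the distances and in the promoter shares was not tested.

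A PPAR element was found in 7 of the 24 sites, and in 14.2% of all 40474 sites. The count rested on the mismatches allowed: with 1 mismatch it was 0 (3.29% of all sites), and with 3 mismatches it was 12 of 24 (44.3% of all). In windows of 50 bp at the site centers it was 2 (4.21% of all). The 7 were *Plin2* -20306 and -1917, *Plin4* +10377, *Plin5* -76, *Cideb* +621, *Cidec* +7522 and *Fitm2* +765, each with 2 mismatches. All 7 sites had PPARα, as did 21 of the 24. At *Plin5* -76, however, the match lay 130 bp downstream of the site's center. There it was outside every PPAR peak and inside the Bcl6 fl/fl BCL6 peak. At *Plin2* -1917 the match, aggtgaaagggca, lay 21 bp upstream of the site's center, and at *Cidec* +7522 the nearer of 2 matches, aggtcgaaggtta, lay 3 bp upstream of it. At *Plin2* -20306 the match, agggcaaagttca, was 87 bp downstream of the center. By list, the element was in 5 of the 14 fed PPARα peaks (14.2% of all peaks of that list had it), 5 of the 18 fasted PPARα peaks (15.0%), 4 of the 9 fed PPARδ peaks (20.9%) and 3 of the 6 fasted PPARδ peaks (23.2%). It was also in 2 of the 4 fed C57BL/6 BCL6 peaks (11.6%) and 3 of the 11 Bcl6 fl/fl peaks (11.5%). Of the 4 fasted BCL6 peaks 0 had it (12.2%).

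A BCL6 element was found in 3 sites, against 12.6% of all sites. Exact matches were in 1 site (1.34% of all), and with 2 mismatches 11 sites had a match (56.9% of all). The only exact match, ttcctagaa at *Cideb* +621, was in a fed PPARα site without BCL6 in any list. *Cidec* -3125, with fasted BCL6, held tgcctagaa 16 bp downstream of the joined site's center, whereas its BCL6 peak was centered 67 bp upstream of that center. *Cidec* +7522 held ttcccagaa. None of the 4 fed C57BL/6 BCL6 peaks, all at *Plin2*, held the element, where 16.6% of all fed BCL6 peaks did, and 1 of the 4 fasted peaks did (16.7% of all). In the Bcl6 fl/fl list it was in 1 of 11 peaks (16.5% of all). The PPARα lists had it in 3 of 14 fed peaks (8.84% of all) and 2 of 18 fasted peaks (7.10%). The PPARδ lists had it in 2 of 9 fed peaks (8.69%) and 2 of 6 fasted peaks (9.09%). A match is a description of the letters in the peak and does not show where a factor bound.

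Other lipid droplet genes, namely lipases and their regulators, triglyceride synthesis enzymes and further droplet proteins, were set beside the coat genes. Of 18 genes listed 17 were found in the annotation, with a median of 4 sites over the 17. The 84 sites were at 13 of these genes. *Dgat2*, which makes triglyceride, had 15 and *Mgll*, the monoacylglycerol lipase, 12, both above the 6 of *Plin2*, while *Bscl2*, *Dgat1*, *Rab18* and *Aup1* had none. The stretches assigned to them were 56.7 kb for *Dgat2* and 152.3 kb for *Mgll*, beside 82.5 kb for *Plin2*. The counts compared here were not adjusted for stretch length. *Plin1*, the perilipin of adipocytes, had 3 sites and no C57BL/6 BCL6 peak. Fed C57BL/6 BCL6 was at 10 of the 17 genes, compared with 1 of the 9 coat genes, and 44.9% of their 69 PPARα sites had BCL6 (interval 33.8% to 56.6%), next to 19.0% of the 21 at the coat genes. In the fed Bcl6 fl/fl list, BCL6 was at 12 of the 17 genes and at 6 of the 9 coat genes, and with BCL6 from either genotype 56.5% (interval 44.8% to 67.6%) and 47.6% (interval 28.3% to 67.6%) of their PPARα sites had it. Of their 33 PPARδ sites 8 were called in both states (24.2%, interval 12.8% to 41.0%), compared with 6 of 9 at the coat genes. PPARδ was at 26 of their 69 PPARα sites (37.7%, interval 27.2% to 49.5%), close to the 42.9% at the coat genes. All 3 factors in C57BL/6 livers were at 17 of their 84 sites (20.2%, interval 13.0% to 30.0%), beside 16.7% at the coat genes. No difference between the gene groups was tested.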

How the data were processed

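Of the 59 samples of the series, the 21 behind the peak lists of BCL6, PPARα and PPARδ ChIP-seq in liver were used, 7 groups of 3, and the rest were not analysed here. Before deposit, the authors mapped reads with Bowtie to mm10, left out reads with several matches and duplicates beyond 1 read at a start position, and ran HOMER peak calling against input over the 3 replicates together. The authors used DESeq2 to keep peaks with 2-fold enrichment at a false discovery rate of 0.05. The deposited lists give chromosome, start and end only, so depth, heights and replicate error are unknown. Starts were read as 1-based, which the lists do not state.

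TSSs were those of 56206 coding RefSeq transcripts of 21774 protein-coding genes on GRCm38.p6, the assembly of mm10. Peaks were joined by single linkage of centers within 200 bp. Elements were searched on both strands in the peak intervals, or over the joined interval of a site, and sequences come from the RefSeq assembly. Functions were tested on simulated data. Shares have 95% Wilson intervals for counting error, and no tests were made. All 9 genes and every site are named, and the text names genes of a list of 18 other lipid droplet genes. The genes and lists were chosen with earlier results of these data known. Alternatives covered the joining distance, the reach and set of TSSs, the fed BCL6 list, and the window and mismatches of the search. Python 3.11.15, NumPy 2.4.6 and Matplotlib 3.10.9 were used.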

Additional observations from a re-analysis of the deposited data

How the results depend on the processing

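The limits are those of called peaks: with no heights or depths, a site missing from a list may lie just under the calling threshold. No paired analysis was possible because each list pools its 3 replicates, and for the same reason no replicate could be left out. Of 233 alternative values 221 stayed within the spread of counting error or within 1.5 times the count. With the fed BCL6 list of Bcl6 fl/fl livers in place of the C57BL/6 list, the fed-only share of 13 BCL6 sites was 69.2% and the share in both states 15.4%, 47.6% of PPARα sites had BCL6, and 8 sites held all 3 factors. Values over all sites after this swap are not given, and it sets fed Bcl6 fl/fl livers against fasted C57BL/6 livers. A PPAR element was in 2 sites within 50 bp windows at the site centers (4.21% of all sites), in 0 with 1 mismatch fewer (3.29% of all) and in 12 with 1 mismatch more (44.3% of all). A BCL6 element was in 1 site with 1 mismatch fewer (1.34% of all) and in 11 with 1 mismatch more (56.9% of all). Without the gene body rule *Plin3* and *Cideb* had 1 site each, and with 1 TSS per gene record *Fitm1* had 1. Leaving out predicted transcripts, an alternative chosen after seeing the data, gave the same 24 sites in number. The joining distances of 100 and 400 bp, the overlap of 1 bp and the reach of 50 kb or 1 Mb moved no value by more than 1.5 times.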
